A study of Homo sapiens with 6 samples.

Results

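The 10 genes described here encode enzymes of mitochondrial fatty acid oxidation: CPT1A, CPT1B, CPT2, ACADM, ACADS, ACADSB, HADHA, HADHB, ETFA and ETFDH. They were chosen by name, 10 of the 27968 genes in the deposited tables, and all 10 had enough counts to be tested. The libraries come from 3 untreated A549 cultures and 3 untreated H23 cultures, each grown and lysed independently, and both are established human lines from lung adenocarcinomas. A549 grew in DMEM and H23 in RPMI medium, each with fetal bovine serum, so the line and its medium cannot be told apart. Each line stands for the 1 tumour it came from. Total RNA was depleted of ribosomal RNA and made into stranded libraries, per the labels' protocols.

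Fatty acids are burned in mitochondria in a fixed order. A long-chain fatty acid is first joined to coenzyme A, then passed to carnitine by CPT1 on the outer membrane, carried across the inner membrane and returned to coenzyme A by CPT2. Inside, an acyl-CoA dehydrogenase suited to the chain length opens each round of beta-oxidation. The later steps of a round on long chains are carried out by the trifunctional protein, whose alpha and beta subunits are HADHA and HADHB. Electrons leave the dehydrogenases through the electron transfer flavoprotein, built from ETFA and ETFB, and reach ubiquinone through ETFDH.

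CPT1A and CPT2, which act on the outer and inner side of carnitine-dependent entry, were lower in A549 than in H23. ETFA and ACADSB were each more than 2-fold higher in A549, and CPT1B and ACADS were higher by smaller amounts. The trifunctional protein subunits, ACADM and ETFDH did not pass the test. With edgeR's quasi-likelihood test at an adjusted p of 0.05, 4 of the 10 genes were higher in A549 and 2 were lower. Over all 15426 genes tested, 37.6% were higher in A549 and 39.6% lower, 77.2% in all, so 6 of 10 is no more than the share called among all genes. On deposited TPM, tested with limma, 25.1% of all genes were higher in A549 and 54% lower. The median log2 fold, A549 over H23, was 0.12 over the 10 genes and -0.03 over all genes tested.

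**Figure D1:**
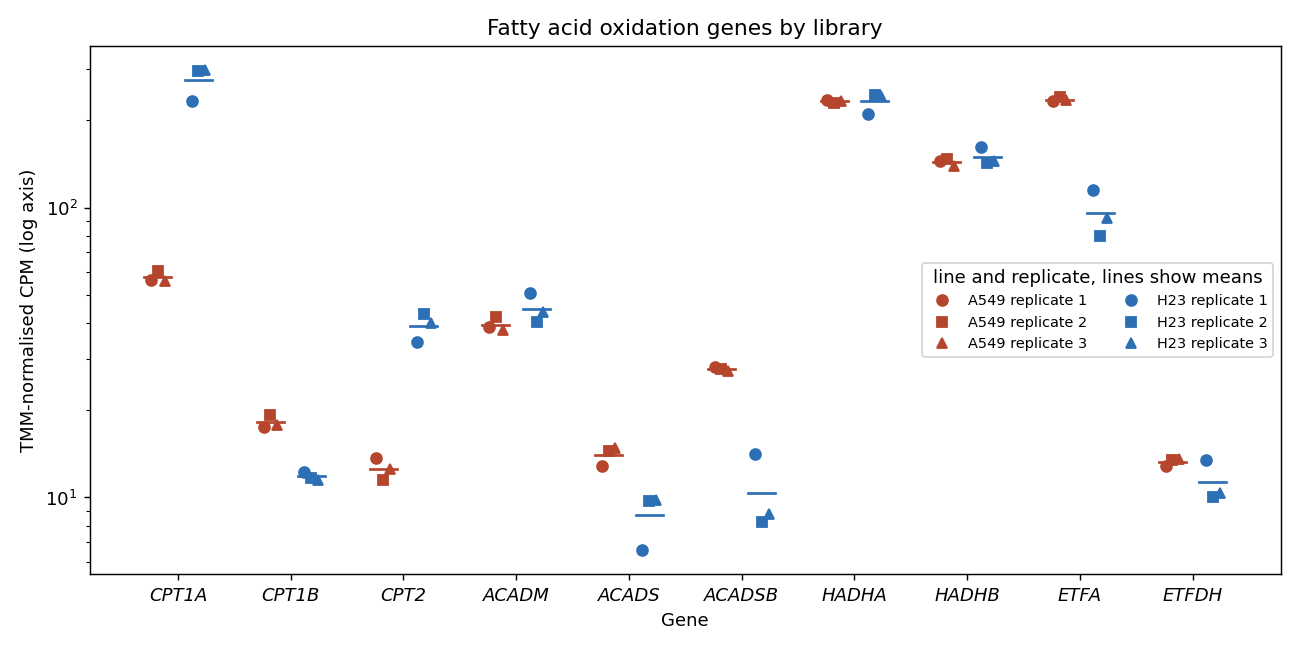
Level of each gene in every library, in CPM scaled with TMM factors (log axis), with A549 left of H23; points are libraries and bars are means. CPT1A and CPT2 lie lower in all 3 A549 libraries, CPT1B, ACADS, ACADSB and ETFA lie higher in all 3, and the libraries of the lines overlap for the other 4 genes.

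The libraries held 23399562 to 25348083 estimated reads in A549 and 29395795 to 42421642 in H23. All 5 epithelial markers were detected in both lines and summed to 5760 to 5970 TPM in A549 and 3970 to 4120 TPM in H23. These sums of deposited TPM show presence and do not compare levels between the lines. By CPM, KRT8, a keratin of simple epithelia, averaged 2186 over the A549 libraries against 1493 over the H23 libraries. It passed as higher in A549, at a log2 fold of 0.55 ± 0.07 with an adjusted p of 0.000276 by edgeR. KRT18, another such keratin, averaged 2250 against 2144 in the same order and did not pass, with an adjusted p of 0.435 by edgeR. KRT7 averaged 3562 against 1.18 in that order, and KRT19 averaged 61.8 against 4.68. EPCAM went the other way, with 3.61 CPM in A549 and 6.81 CPM in H23. It passed as lower in A549, at a log2 fold of -0.91 ± 0.19 with an adjusted p of 0.00407 by edgeR. Blood and endothelial markers summed to at most 0.07 TPM in A549 and 0.22 TPM in H23, with CD3E and HBB at 0 counts in every library. VWF, in the same list, had 0 counts in every A549 library and 10, 30 and 29 counts in the H23 libraries. H23 replicate 1 stood apart from the other H23 libraries, with a rank correlation over genes of 0.977 to its own line, while libraries of the same line otherwise reached 0.998. Genes of up to 300 bases took 29.6% to 33.4% of all TPM in A549 and 0.125% to 0.262% in H23. A TPM value in A549 is therefore divided by a total that these short genes fill in part, and lines are compared here in CPM, read counts scaled to library size with TMM factors, with no correction for length. TPM, which is per length, is used to set different genes side by side within a library. In bulk RNA of this kind, fewer cells using a gene and less RNA per cell cannot be told apart.

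CPT1A is the carnitine palmitoyltransferase of the liver and most other tissues, and malonyl-CoA inhibits it. It had 56.1, 60.3 and 56.0 CPM in the A549 libraries, against 232.5, 296.4 and 298.1 CPM in the H23 libraries. Every A549 library lay below every H23 library. The mean was 57.5 ± 2.44 CPM in A549 and 275.7 ± 37.4 CPM in H23 (SD, n = 3 each), 4.8-fold lower in A549. The log2 fold was -2.26 ± 0.12 (SE), with an adjusted p of 5.06e-06 by edgeR, the largest change among the 10 genes.

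CPT2 removes the carnitine again on the matrix side. It stood at 13.7, 11.5 and 12.5 CPM in A549, against 34.5, 42.9 and 40.1 CPM in H23. The lines did not overlap, and the level was 3.12-fold lower in A549. Its mean was 12.6 ± 1.09 CPM in A549 and 39.2 ± 4.29 CPM in H23 (SD, n = 3 each), for a log2 fold of -1.64 ± 0.12 and an adjusted p of 2.37e-05 by edgeR.

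CPT1B is the form typical of heart and skeletal muscle. Its level was 17.5, 19.2 and 17.9 CPM in A549, against 12.3, 11.7 and 11.5 CPM in H23. All A549 libraries were above all H23 libraries. The log2 fold was 0.62 ± 0.09, 1.54-fold higher in A549, with an adjusted p of 0.000746 by edgeR. On deposited TPM the log2 fold was 0.06 and missed the threshold, at an adjusted p of 0.563 by limma, and with a GC and length trend removed it was 1.22. Markers of striated muscle summed to 0.03 to 0.06 TPM in A549 and 0.61 to 0.68 TPM in H23. Among them MYOD1 had 0 counts in every A549 library and 7, 14 and 17 counts in the H23 libraries. ACTA1 had 1, 2 and 1 counts in A549, against 14, 4 and 5 in H23. MYH7, a myosin heavy chain of heart and slow muscle, had 0 counts in every library. The read-through gene CHKB-CPT1B shares exons with CPT1B and was listed at 0.54, 0.96 and 0.97 TPM in A549, against 0.24, 0.68 and 0.69 TPM in H23. Reads in those shared exons were divided by RSEM, so the CPT1B level is uncertain to that extent.

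Within a library, CPT1A exceeded CPT1B in both lines. Its TPM was 1.75, 1.71 and 1.71 times that of CPT1B in the A549 libraries, against 9.7, 12.8 and 13.2 times in the H23 libraries. The ratio of CPT1A to CPT2 was 2.53, 3.24 and 2.77 in A549, against 3.91, 3.98 and 4.31 in H23. Neither ratio overlapped between the lines. For each the two-sided exact permutation p was 0.1, the smallest that 3 libraries against 3 allow, and 0.125 after adjustment over 5 ratios.

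ACADM is the medium-chain acyl-CoA dehydrogenase, whose loss is a common inherited defect of fatty acid oxidation. It had 38.6, 42.1 and 37.8 CPM in A549, against 50.9, 40.2 and 43.5 CPM in H23. The ranges overlapped, and its log2 fold of -0.18 ± 0.11 did not pass edgeR's test, with an adjusted p of 0.175. It did pass, as lower in A549, with upper quartile scaling, where the log2 fold was -0.31 and the adjusted p by edgeR 0.0373. With the GC and length trend removed they were -0.79 and 0.000173. On deposited TPM with a pseudocount of 1 it also passed as lower, at -0.69 with an adjusted p of 0.000357 by limma.

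ACADS handles short chains. It was measured at 12.8, 14.4 and 14.9 CPM in A549, against 6.58, 9.69 and 9.84 CPM in H23, with no overlap. The log2 fold was 0.69 ± 0.17, 1.61-fold higher in A549, with an adjusted p of 0.00894 by edgeR. On deposited TPM it was 0.14, with an adjusted p of 0.5 by limma, and with the GC and length trend removed it was 1.24.

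ACADSB acts on short branched chains and takes part in isoleucine breakdown. It had 28.2, 27.7 and 27.4 CPM in A549, against 14.1, 8.25 and 8.80 CPM in H23. The A549 libraries lay close together and above all H23 libraries, among which replicate 1 was highest. With a log2 fold of 1.42 ± 0.21, 2.67-fold higher in A549, and an adjusted p of 0.000669 by edgeR, it had the largest rise among the 10 genes by edgeR on counts. On deposited TPM with a pseudocount of 1, ETFA had 0.73 and ACADSB 0.71, while with a pseudocount of 0.1 ETFA had 0.73 and ACADSB 0.88. With the GC and length trend removed, ACADS, CPT1B and ETFA all exceeded ACADSB. The log2 fold of ACADSB was 1.69 without H23 replicate 1 and 0.47 with the GC and length trend removed, and it passed in both.

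HADHA carries the hydratase and long-chain hydroxyacyl-CoA dehydrogenase activities of the trifunctional protein, and HADHB carries its thiolase. The genes lie head to head on chromosome 2, with their starts 307 bases apart. RefSeq windows of 250 bases before to 50 bases after a start were found for 8 of the 10 genes (all but CPT1B and ETFDH). Only the first window listed for a gene was used, so any other starts of that gene were left out. The HADHB window, at chr2:26244689-26244988 on the plus strand of GRCh38.p14, is shown because most of it lies in the start windows of both genes. Capitals mark the 194 bases that also lie in the HADHA window on the other strand:
HADHB start window: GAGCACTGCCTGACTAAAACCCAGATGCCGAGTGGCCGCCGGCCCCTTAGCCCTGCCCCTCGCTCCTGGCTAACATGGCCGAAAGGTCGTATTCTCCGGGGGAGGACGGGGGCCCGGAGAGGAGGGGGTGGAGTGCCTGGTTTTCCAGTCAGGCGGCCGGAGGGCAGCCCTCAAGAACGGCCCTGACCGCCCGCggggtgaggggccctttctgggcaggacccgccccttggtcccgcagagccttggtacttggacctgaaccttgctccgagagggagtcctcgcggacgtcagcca

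HADHA had 234.0, 229.5 and 233.0 CPM in A549, against 209.7, 244.2 and 242.5 CPM in H23. HADHB had 144.8, 147.5 and 139.1 CPM in A549, against 161.2, 142.8 and 144.6 CPM in H23. In both genes the lines overlapped, and H23 replicate 1 lay outside the other H23 libraries, lowest for HADHA and highest for HADHB. Log2 folds were 0.00 ± 0.09 for HADHA and -0.06 ± 0.08 for HADHB, with adjusted p of 0.997 and 0.549 by edgeR. On deposited TPM both passed as lower in A549, at log2 folds of -0.54 and -0.59. With the GC and length trend removed, HADHA passed as higher in A549, at a log2 fold of 0.20 and an adjusted p of 0.0224 by edgeR, so its direction depends on the scaling. With that TPM rescaled after genes of up to 300 bases were left out, HADHA averaged 126.9 ± 1.88 in A549 and 127.0 ± 16.8 in H23 (SD, n = 3 each).

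The ratio of the subunits' TPM, HADHA over HADHB, was 1.14, 1.09 and 1.18 in A549, against 0.916, 1.20 and 1.18 in H23. The lines overlapped, and the log2 difference was 0.05 with a two-sided exact permutation p of 1. Without H23 replicate 1 that difference was -0.07.

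**Figure D2:**
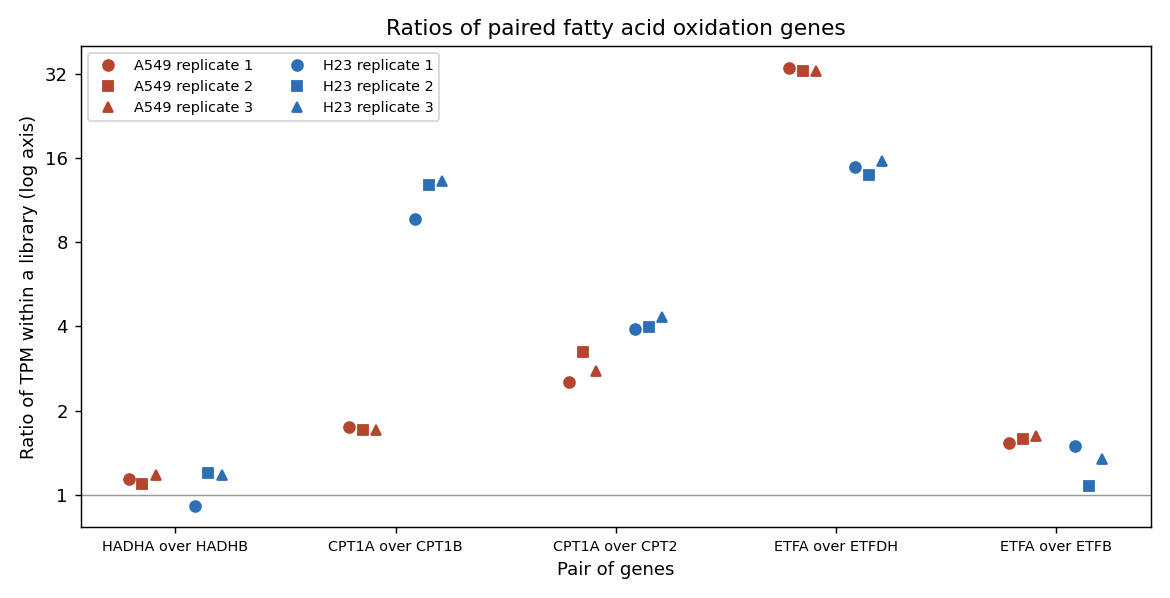
Ratios of TPM between genes that work together, in each library, with A549 left of H23 (log axis). The ratio of HADHA to HADHB overlaps between the lines, while CPT1A over CPT1B lies lower in A549 and ETFA over ETFDH lies higher in A549.

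ETFA, the alpha subunit of the electron transfer flavoprotein, had 232.2, 240.2 and 234.1 CPM in A549, against 114.9, 80.0 and 92.0 CPM in H23. All A549 libraries were above all H23 libraries. The mean was 235.5 ± 4.19 CPM in A549 and 95.6 ± 17.8 CPM in H23 (SD, n = 3 each), 2.46-fold higher in A549. The log2 fold was 1.3 ± 0.14, with an adjusted p of 0.000126 by edgeR, and 0.73 on deposited TPM, where it still passed.

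ETFDH hands the electrons of the flavoprotein to ubiquinone. It was counted at 12.8, 13.4 and 13.6 CPM in A549, against 13.4, 10.1 and 10.4 CPM in H23. H23 replicate 1 reached into the A549 range while the other H23 libraries lay below it. The log2 fold of 0.23 ± 0.14 did not pass edgeR's test, with an adjusted p of 0.157. Without H23 replicate 1 it was 0.37 and passed, with an adjusted p of 0.000423 by edgeR. On deposited TPM it turned to -0.38, lower in A549, with an adjusted p of 0.0163 by limma. With the GC and length trend removed it passed as higher, at 0.35 with an adjusted p of 0.0221 by edgeR.

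The TPM of ETFA was 33.6, 32.7 and 32.8 times that of ETFDH in A549, against 14.9, 13.9 and 15.6 times in H23. Against ETFB, the gene of its partner subunit, the ratio was 1.53, 1.58 and 1.62 in A549 and 1.49, 1.08 and 1.34 in H23. Neither ratio overlapped between the lines. Their log2 differences were 1.16 for ETFDH and 0.29 for ETFB as partner, each with a two-sided exact permutation p of 0.1, or 0.125 adjusted over the 5 ratios. For ETFB the difference was 0.15 to 0.39 when single libraries were left out.

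**Figure D3:**
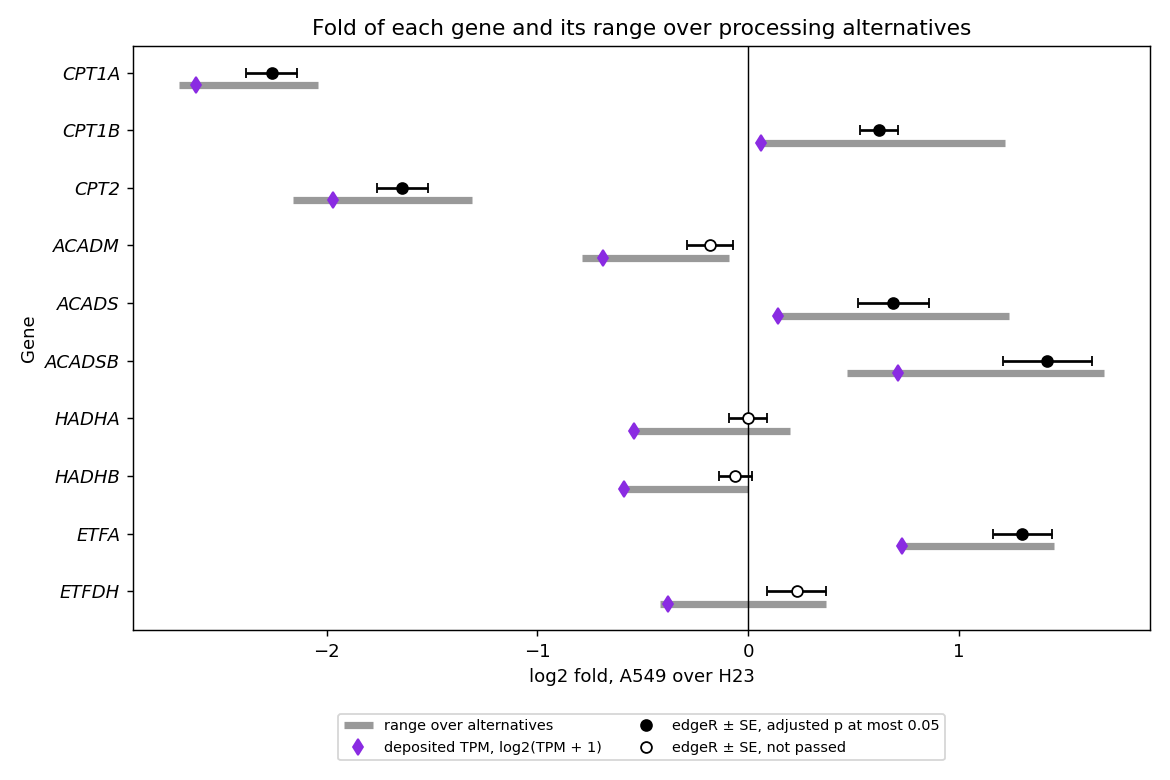
Log2 fold, A549 over H23, of each gene by edgeR with its SE, filled where the adjusted p is at most 0.05, above its range over 16 processing alternatives (grey) and its value on deposited TPM (diamonds). CPT1A and CPT2 stay below 0 and ACADSB and ETFA stay above 0 throughout, while HADHA and ETFDH cross 0.

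Of the 10 genes, 6 had libraries that did not overlap between the lines, against 82.1% of all genes tested. H23 replicate 1 was the highest H23 library for CPT1B, ACADM, ACADSB, HADHB, ETFA and ETFDH and the lowest for the other 4. Without it, 5 of the 10 genes were higher in A549 and 2 lower, the added gene being ETFDH, while the share called among all genes was 88.6%.

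By TPM within a line, ETFA led in both. It averaged 217.9 ± 6.84 TPM in A549 and 132.3 ± 19.9 TPM in H23 (SD, n = 3 each). In A549 it was followed by HADHA at 86.4, HADHB at 76.1, ACADM at 17.2 and CPT1A at 12.9 TPM, and then by ACADS, CPT1B, ETFDH, ACADSB and CPT2 between 8.46 and 4.58 TPM. Among neighbours in that order only ACADS and CPT1B overlapped over the A549 libraries.

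In H23, ETFA was followed by HADHA at 126.8 and HADHB at 115.4 TPM, and these 3 neighbours overlapped in turn. CPT1A came next at 85.7 ± 15.5 TPM, above ACADM at 28.5 and CPT2 at 21.0 TPM. ETFDH, ACADS and CPT1B, between 8.94 and 7.17 TPM, also overlapped in turn, and ACADSB was lowest at 2.78 TPM.

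As a share of the 10 genes' summed TPM within a library, a measure that the short genes do not enter, ETFA made up 48.9%, 49.4% and 49.4% in A549, against 29.4%, 21.2% and 23.6% in H23. CPT1A made up 2.86%, 3.02% and 2.89% in A549, against 13.1%, 17.6% and 17.2% in H23. Both shares were separate between the lines, in opposite directions. Summed over the 10 genes, the level was 790.8, 805.8 and 786.2 CPM in A549, against 850.0, 886.2 and 901.2 CPM in H23.

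Transcript usage, the division of a gene's reads among its RefSeq transcripts, could be tested for 7 of the 10 genes, since ACADS, ACADSB and HADHA kept 1 transcript each. ETFA and CPT1A passed edgeR's usage test, 2 of 7, while 25.9% of all 7539 genes tested for usage passed. On simulated data this usage test made more false calls than its threshold allows. Usage values are RSEM's estimates, given per library as the percent of a gene's transcripts.

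The ETFA transcripts differ by coding exon 2 of 12, at chr15:76295591-76295737 on the minus strand of GRCh38 in the GENCODE annotation. The exon is 147 bases long, 49 codons, and leaves the reading frame as it is. Its sequence is shown in capitals with 12 bases of the neighbouring exons on each side, above the junction made when it is skipped:
ETFA exon 2 with flanks: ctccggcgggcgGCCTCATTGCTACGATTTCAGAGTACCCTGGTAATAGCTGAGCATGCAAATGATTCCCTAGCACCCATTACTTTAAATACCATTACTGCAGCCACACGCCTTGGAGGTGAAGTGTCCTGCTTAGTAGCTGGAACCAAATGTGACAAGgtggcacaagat
ETFA junction without exon 2: ctccggcgggcggtggcacaagat

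The transcript with the exon, NM_000126, made up 81.6%, 85.8% and 83.5% of ETFA in A549, against 47.6%, 66.5% and 65.2% in H23. Every A549 library was above every H23 library, and H23 replicate 1 was the lowest. The mean share was 83.6 ± 2.12% in A549 and 59.8 ± 10.6% in H23 (SD, n = 3 each), a difference of 23.9 percentage points, with an adjusted p of 0.00246 by edgeR's usage test.

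In CPM, NM_000126 averaged 201.2 ± 8.12 in A549 and 58.9 ± 3.56 in H23 (SD, n = 3 each). The transcript without the exon, NM_001127716, had 38.3, 30.3 and 34.5 CPM in A549, against 56.4, 24.5 and 29.4 CPM in H23. Its lines overlapped, so the difference in the ETFA level lay in the transcript with the exon. H23 replicate 1 held the highest level of the shorter form.

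The CPT1A transcripts NM_001876, of 5253 bases, and NM_001031847, of 2637 bases, differ at their last exon. The shorter one made up 12.9%, 14.1% and 14% of CPT1A in A549, against 1.97%, 0.28% and 1.96% in H23. The shares were separate, with a difference of 12.3 percentage points between the means and an adjusted p of 0.00402 by edgeR's usage test. In CPM the longer form averaged 53.4 ± 2.15 in A549 and 273.8 ± 37.7 in H23 (SD, n = 3 each). The shorter form averaged 4.09 ± 0.35 CPM in A549 and 1.84 ± 1.28 CPM in H23 (SD, n = 3 each), the opposite order.

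**Figure D4:**
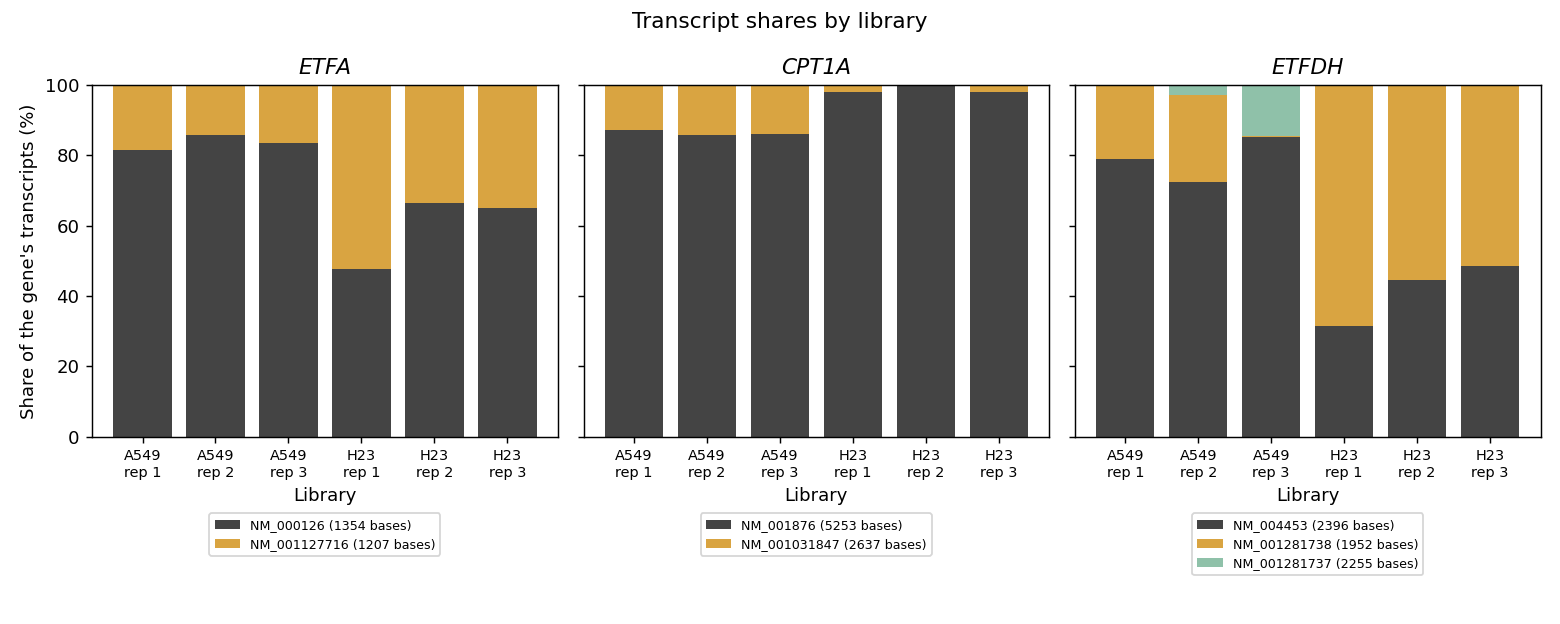
Share of each gene's transcripts, in percent, that RSEM gave to the transcripts of ETFA, CPT1A and ETFDH in each library, with A549 left of H23. NM_000126 of ETFA lies between 81.6% and 85.8% in A549 and between 47.6% and 66.5% in H23.

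For ETFDH, NM_004453 made up 79.0%, 72.3% and 85.2% in A549, against 31.5%, 44.5% and 48.5% in H23. The lines did not overlap, yet the gene did not pass edgeR's usage test, with an adjusted p of 0.0859. It passed without A549 replicate 1, with an adjusted p of 0.0381 by edgeR, and without A549 replicate 3, with 0.0252 by edgeR. HADHB, CPT1B, CPT2 and ACADM had adjusted p of 0.17, 0.293, 0.624 and 0.916 by edgeR's usage test. CPT1B passed without H23 replicate 3, at an adjusted p of 0.00268 by edgeR, and CPT2 without A549 replicate 2, at 0.0135 by edgeR.

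Short motifs were searched on both strands of the 8 start windows. GGGCGG, the core letters bound by SP1, lay in 45% of all 35116 windows in the table. It occurred 4 times each in CPT2 and ACADM, 3 times in ACADSB, 2 times each in ACADS and HADHB, once each in HADHA and ETFA, and 0 times in CPT1A. The HADHA match lies in the stretch shared with the HADHB window, so that site is counted for both genes. CCAAT, found in 34.6% of windows, occurred 2 times in ETFA and 0 times in the other 7. AGGTCA, the receptor half-site letters found in 13.8% of windows, and CACGTG, found in 7.26%, were in none of the 8 windows, nor was AGGTCANAGGTCA, the direct repeat read by PPAR and RXR, found in 0.0228%. The CPT1A window begins at another start than the deposited transcripts do, so its counts describe that window only.

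The other genes of mitochondrial beta-oxidation were mostly lower in A549. Of 12 tested, 9 were lower, 2 higher and 1 did not pass, with a median log2 fold of -0.37. Over all genes tested, 37.6% were higher and 39.6% lower, and the lists below stand beside the same shares. The counts were the same without H23 replicate 1, where 88.6% of all genes were called. With the GC and length trend removed 5 were higher and 5 lower, against 40.2% and 40.5% of all genes. HADH, the dehydrogenase for shorter hydroxyacyl chains, had a log2 fold of -1.10 ± 0.09 with an adjusted p of 3.3e-05 by edgeR. ACAD11, another acyl-CoA dehydrogenase, had -1.15 ± 0.09 with 3.52e-05 by edgeR.

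ETFB, the beta subunit of the flavoprotein, was higher together with ETFA. It had 97.7, 96.8 and 92.6 CPM in A549, against 52.0, 49.1 and 45.2 CPM in H23. The lines were separate, and the log2 fold was 0.97 ± 0.09 with an adjusted p of 5e-05 by edgeR. DECR1, the dienoyl-CoA reductase that unsaturated chains need, had a log2 fold of 0.46 ± 0.16 with an adjusted p of 0.033 by edgeR, and turned to -0.06 on deposited TPM. DECR1 had 0.14 and an adjusted p of 0.176 by edgeR with the GC and length trend removed. It also missed the threshold when any library but H23 replicate 1 was left out, at adjusted p of 0.0541 to 0.0956 by edgeR. In the list of flavoprotein-linked dehydrogenases outside beta-oxidation, 4 of 4 tested genes were lower, with a median of -0.90, against 39.6% of all genes. With the GC and length trend removed 3 of 4 were lower, against 40.5% of all genes. Among them ACAD8, of valine breakdown, had -0.92 ± 0.09 and IVD, of leucine breakdown, had -0.89 ± 0.12, with adjusted p of 6.75e-05 and 0.000377 by edgeR.

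Of 9 genes tested for fatty acid activation and carnitine entry, 4 were higher in A549, 2 lower and 3 did not pass, with a median log2 fold of -0.10. These calls compare with 77.2% of all genes called. Without H23 replicate 1, where 88.6% of all genes were called, there were 4 higher and 4 lower. On deposited TPM 4 were higher and 5 lower, with a median of -0.59, and 79.1% of all genes were called. With the GC and length trend removed 5 were higher and 3 lower, with a median of 0.50, and 80.8% of all genes were called. ACSL3, an acyl-CoA synthetase linked to lipid droplets, had 324.4, 319.4 and 298.9 CPM in A549, against 72.8, 37.5 and 35.3 CPM in H23. That was a log2 fold of 2.70 ± 0.29 with an adjusted p of 0.000138 by edgeR. The carnitine importer SLC22A5 had a log2 fold of 2.44 ± 0.11 with an adjusted p of 2.95e-06 by edgeR.

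CPT1C, the neuronal relative of CPT1A and CPT1B, had 3.33, 3.40 and 2.54 CPM in A549, against 23.9, 30.0 and 32.1 CPM in H23. The lines were far apart, with a log2 fold of -3.21 ± 0.18 and an adjusted p of 5.65e-06 by edgeR. SLC25A20, which carries acylcarnitine across the inner membrane between CPT1 and CPT2, had -0.73 ± 0.10 with 0.000548 by edgeR. CPT1A, SLC25A20 and CPT2, which act in sequence, were thus all lower in A549, as were 39.6% of all genes tested. CPT1B, the other form at the step of CPT1A, was higher by edgeR on counts, at a log2 fold of 0.62.

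Peroxisomes shorten very long and branched chains by enzymes of their own. Of 14 genes tested, 10 were higher in A549, 3 lower and 1 did not pass, with a median log2 fold of 0.44. Among all genes 37.6% were higher and 39.6% lower. The counts were the same without H23 replicate 1, where 88.6% of all genes were called. On deposited TPM 5 were higher and 4 lower, against 25.1% and 54% of all genes. EHHADH, the peroxisomal bifunctional enzyme, had 2.45 ± 0.16 with an adjusted p of 1.34e-05 by edgeR, and ACOX2, the oxidase for branched chains, had 3.01 ± 0.28 with 6.54e-05 by edgeR. PHYH, which starts the breakdown of phytanic acid, had -1.05 ± 0.10 with 9.08e-05 by edgeR.

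Transcription factors that control fatty acid oxidation were mixed. Of 8 tested, 4 were higher and 4 lower in A549, with a median log2 fold of -0.02, while 77.2% of all genes were called. PPARG, best known in fat cells, had 54.1, 56.0 and 55.3 CPM in A549, against 2.88, 1.40 and 1.72 CPM in H23. PPARD had 3.91, 4.63 and 4.10 CPM in A549, against 31.8, 49.2 and 51.3 CPM in H23. These receptors were separate in opposite directions, at log2 folds of 4.77 ± 0.26 and -3.39 ± 0.22, with adjusted p of 5.43e-06 and 1.13e-05 by edgeR. PPARA, the receptor that drives oxidation in liver, had -1.22 ± 0.16 with 0.000335 by edgeR, and RXRA, the partner of all 3, had 1.52 ± 0.13 with 5.26e-05 by edgeR.

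Among the other known PPAR targets, 4 of 9 could be tested, of which 0 were higher, 2 were lower and 2 did not pass. Without H23 replicate 1, where 88.6% of all genes were called, all 4 passed as lower. With the GC and length trend removed, where 80.8% of all genes were called, 1 did. PDK4, a kinase that shuts pyruvate out of the mitochondrial cycle, had a log2 fold of -2.44 ± 0.29 with an adjusted p of 0.000243 by edgeR. UCP3, a carrier of muscle mitochondria, had -0.89 ± 0.32 with 0.0354 by edgeR, and missed the threshold without A549 replicate 1, A549 replicate 2 or H23 replicate 2, at 0.0978, 0.0972 and 0.0604 by edgeR. With the replicate number as a block the adjusted p of UCP3 was 0.0613 by edgeR, and with the GC and length trend removed its log2 fold was -0.30 with an adjusted p of 0.426 by edgeR. FABP4 had 0 counts in the A549 libraries and FGF21 had 0 counts in all libraries, which at 3 counts allows up to 0.120 to 0.129 CPM in an A549 library and 0.0706 to 0.1 CPM in an H23 library.

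Ketone bodies are made and used by enzymes next to beta-oxidation. Of 5 tested, 0 were higher, 3 lower and 2 did not pass, with a median log2 fold of -1.06, while 77.2% of all genes were called. Without H23 replicate 1, where 88.6% of all genes were called, there were 2 higher and 3 lower. OXCT1, which starts the use of ketone bodies, averaged 9.16 CPM in A549 and 60.3 CPM in H23. BDH1, which interconverts them, averaged 3.27 CPM in A549 and 14 CPM in H23. Their log2 folds were -2.72 ± 0.11 and -2.10 ± 0.12, with adjusted p of 1.65e-06 and 6.76e-06 by edgeR.

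Each gene was also set against the 65 tested genes of these lists by the root mean square difference of centred log2 CPM over the 6 libraries. CPT2 was closest to BDH1, at 0.27. ETFA was closest to ACADSB, at 0.13, and ACADSB to ABCD3, a peroxisomal importer, at 0.10. Nearest genes were also SCP2 for CPT1B, ESRRA for ACADS, ACSL1 for ACADM and HADHB, CRAT for HADHA and ACAT1 for ETFDH, at 0.05 to 0.15. With 6 libraries in 2 lines, these distances mostly describe the difference between the lines.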

How the data were processed

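The labels assign 3 libraries each to A549 and H23. Per the submitters' processing notes, reads were handled with STAR 2.6.0c, RSEM 1.3.0 and hg19; the annotation and strand setting are not given in the sources used here. As deposited, an expected count is RSEM's estimate of the reads from a gene or transcript. The deposited TPM values are scaled for length and depth. The deposited percent values are each transcript's share of its gene, per the file headers. The deposited lengths are in bases, and the deposited FPKM values, scaled by RSEM for length and depth, were not analysed here.

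Expected counts were rounded and tested with edgeR 4.0.16 (filterByExpr, TMM, quasi-likelihood F test, Benjamini-Hochberg over all 15426 genes). Usage was tested with edgeR's diffSpliceDGE. Standard errors, the log2 fold divided by the root of F, are approximate. Both tests were checked on simulated data, where the gene test kept near its threshold and the usage test made more false calls than its threshold allows. The simulation changed only a small part of the genes, while 77.2% were called here. It also gave every library the same spread, while H23 replicate 1 stood apart here. It therefore does not show how either test keeps to its threshold in these data. limma 3.58.1 and DESeq2 1.42.0 served for alternatives. The floor of 3 counts covers counting error only. Sequences came from RefSeq start windows (GRCh38.p14) and from GENCODE transcript sequences with their GRCh38 annotation. These are not the build of the files, so exons were matched by transcript and length, not by converting coordinates.

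The genes and lists were chosen with earlier results of these data known. Up to 2 genes per list and direction were named by size of log2 fold, if they passed the test, did not overlap and reached a mean TPM of 1 in the higher line. Genes with 0 counts in a line were named too. Some genes that this rule names are not reported here.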

Additional observations from a re-analysis of the deposited data

How the results depend on the processing

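Over 16 alternatives of the gene comparison, CPT1A and CPT2 stayed lower and ACADSB and ETFA higher in A549, past the threshold each time. On deposited TPM, with pseudocounts of 1 and 0.1, 2 of the 10 genes were higher and 6 lower. HADHA turned to -0.54 and -0.55 and ETFDH to -0.38 and -0.42, and outside the 10 genes DECR1 turned to -0.06 and -0.07. The median of all genes moved to -0.41 and -0.54 there. With TPM rescaled without genes of up to 300 bases, 4 were higher and 2 lower, as in the counts. With the GC and length trend removed, 6 were higher and 3 lower, where 80.8% of all genes were called. The last 2 settings were chosen after seeing the data. Leaving out single libraries gave 4 to 5 genes higher and 2 lower, 11037 to 13774 genes called in all, the most without H23 replicate 1, 40 to 53 list genes and 2 to 3 genes with changed usage. The ratio of HADHA to HADHB then ranged from -0.07 to 0.13 and that of CPT1A to CPT2 from -0.62 to -0.44 as log2 differences. With expected counts, the difference for ETFA over ETFDH was 1.07. Replicate numbers did not pair the libraries, with correlations of deviations of 0.016, -0.03 and 0.039. With the replicate number as a block, 11691 genes were called against 11910, and the 10 genes' counts stayed at 4 and 2. The causes of these shifts were not tested. Genes near the floor of 0.0706 to 0.129 CPM are limited by depth.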
